A study of Mus musculus with 18 samples.

Results

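The distal intergenic sites described here are the 717 of 3217 CLK:BMAL1 binding sites in mouse liver that the authors placed in the location class of intergenic sites more than 10 kb away. They were taken from the deposited site table by that class alone, and they made up 22.3% of all sites (exact 95% binomial interval 20.9 to 23.8%). The class name does not say from which feature the 10 kb is counted, and the table gives no such distance, so sites just inside and just outside the limit are not listed here. The other 4 classes were intergenic sites within 10 kb (294 sites), sites in introns (1412), sites in other parts of the gene body (211) and sites at transcription start sites, the TSS class (583).

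CLK and BMAL1 are the activating transcription factors of the circadian clock. They bind DNA as a pair at E-box elements and switch on clock genes such as those of the PER and CRY repressors, which later shut the pair down, as well as many output genes of liver metabolism. Binding far from any gene is common for transcription factors, and such places can act as enhancers that contact promoters through loops of the DNA.

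The series itself holds 18 libraries in 6 groups of 3, from livers of adult C57BL/6 mice labelled WT and held in a cycle of equal light and dark. CLK was immunoprecipitated from chromatin that had been crosslinked with formaldehyde and either digested with micrococcal nuclease or sonicated, and input of the sonicated chromatin was sequenced as background. Each kind of library was made at ZT06 and ZT22, hours counted from lights on. Library names at both times carry the numbers 28, 29 and 30. The names do not explain these numbers, so no pairing of livers between ZT06 and ZT22 is read from them. The deposited ChIP profiles are means over sites of every class and were not used here, so the distal sites are described by their identity and position, and no CLK level at ZT06 or ZT22 is given for them.

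Each site carries an identifier such as Koike_CLKBMAL1_P0014, and sites are called below by its last part. The numbers at its end run from 1 to 3217 without a gap. No source used here says what they rank. Positions are those of the table, in genome build mm9. Since the table has no value per library, sites were counted and compared without a test. An interval below covers counting error only and takes the sites as independent, which sites lying side by side are not.

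Distal sites were found from nearly the start of the list to its end, with a mild thinning in the first numbers. Their numbers ran from 14 to 3216 with a median of 1661 (95% interval of the median 1546 to 1773), against 1589 (1528 to 1654) in all other classes together. TSS sites had the second lowest median of the 5 classes, at 1507 (1406 to 1643), after gene body sites at 1453 (1295 to 1711). The intervals of the distal class and of each other class overlap. Among the first 400 numbers 74 sites were distal, 18.5% (14.8 to 22.7%), and among the last 417 numbers 113 were, 27.1% (22.9 to 31.6%). Seen from the classes, 10.3% of distal sites (8.19 to 12.8%) had a number up to 400, and 15.3% of TSS sites did (12.4 to 18.4%). These last intervals overlap by little, and the blocks between the ends of the list moved up and down between 19.2% and 24.2% with no steady course.

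**Figure D1:**
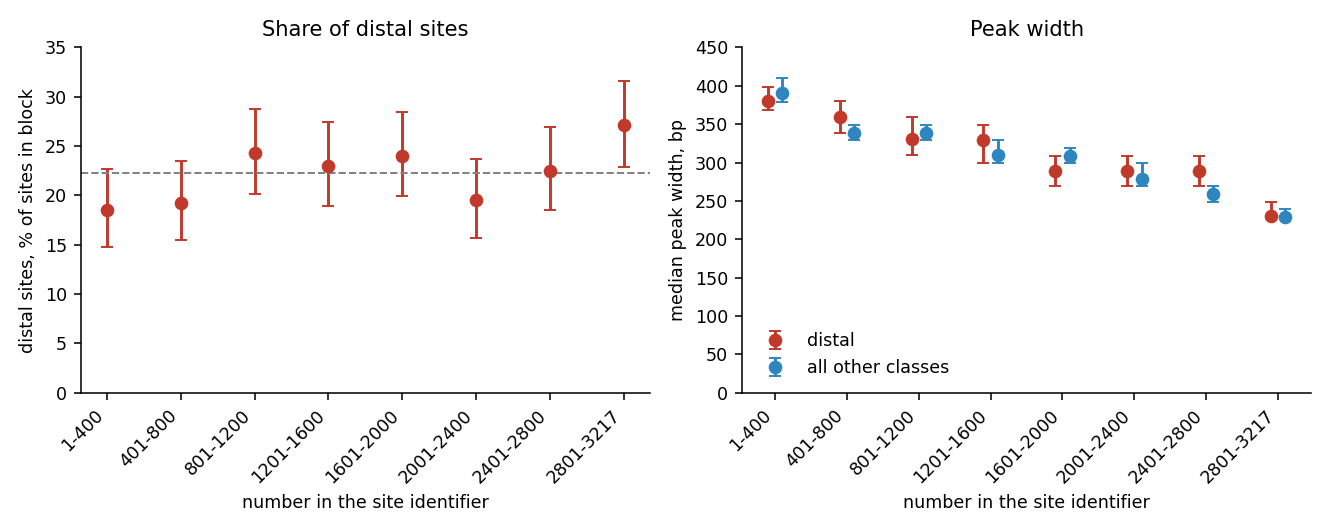
Left, the share of distal sites (percent, y axis) in successive blocks of 400 identifier numbers (x axis; the last block holds 417), with exact 95% binomial intervals and the share over all sites as a dashed line; right, the median peak width in bp of distal sites and of all other classes in the same blocks, with 95% intervals of the median. The distal share is lowest, 18.5%, in the first block and highest, 27.1%, in the last, and the width falls along the list alike in both sets.

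The distal sites with the lowest numbers differed widely in their surroundings. P0014, the first of them, lay at chr6:94949091-94949570 with a peak 479 bp wide, and the nearest site of any class, in an intron, was 714.2 kb away. P0025, at chr17:29533711-29534090, instead had the distal site P0518 at 1.50 kb. P0031, at chr11:90279131-90279740, was among the widest distal peaks at 609 bp and enclosed the whole of another distal peak, P3142. P0037, at chr5:136150721-136151030, had a peak of 309 bp, equal to the class median, and an intron site 33.0 kb away. P0040, at chr13:44401501-44402070, was 569 bp wide and had P2378, distal as well, at 4.25 kb. A low number therefore went with both solitary sites and sites in company.

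Peak width did not set the distal class apart. The median width, taken as end minus start, was 309 bp in the distal class (95% interval 299 to 310 bp), with quartiles at 259 and 379 bp. It was 309 bp as well over all other classes together, and from 300 bp in the TSS class to 310 bp in gene bodies. The interval of the distal median overlaps that of every other class. Distal peaks ranged from 130 to 689 bp. The widest was P0240 at chr15:83986281-83986970, followed by P0047 at chr15:88680731-88681370 with 639 bp and by P0031. The narrowest were P2972 at chr3:101321591-101321721 and P3198 at chr13:51992971-51993101, both 130 bp, and P3080 at chr5:109137451-109137591 with 140 bp. Each of the 3 widest peaks overlapped another distal peak, and 2 of the 3 narrowest had another distal site within 0.2 kb.

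Width fell as the identifier number rose, in the distal class as in the others. Across the 717 distal sites Spearman's rho between number and width was -0.52, and across the 2500 other sites it was also -0.52. This is a description across sites of 1 list, and no source used here says how its peaks were called. Among the numbers 1 to 804, the median distal width was 370 bp against 369 bp in the other classes. Among the numbers 2413 to 3217, it was 259 bp (239 to 269 bp) against 249 bp (239 to 249 bp). With the list cut into 4 equal parts, the intervals of distal and other sites overlapped in each part.

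Distal sites occurred on all 20 chromosomes that carry any site. Chromosome 8 had the most, 56, followed by chromosome 11 with 54 and chromosome 5 with 53, and chromosome X had 3. On 17 of the 20 chromosomes the interval of the distal share held the overall 22.3%. Chromosome 13 lay above it, with 44 distal among 130 sites, 33.8% (25.8 to 42.7%), and so did chromosome 8, with 56 of 195, 28.7% (22.5 to 35.6%). Chromosome 7 lay below it, with 34 of 226, 15.0% (10.6 to 20.4%). These are 20 intervals at the 95% level with no adjustment for their number. On chromosome 11, where 64 of 249 sites were of the TSS class, the distal share was 21.7%, close to the whole. Between chromosomes, neither the identifier number nor the width set the distal class apart. The distal median number was above that of the other sites on 11 chromosomes and below on 9, and the distal median width was above on 8, below on 10 and equal on 2.

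**Figure D2:**
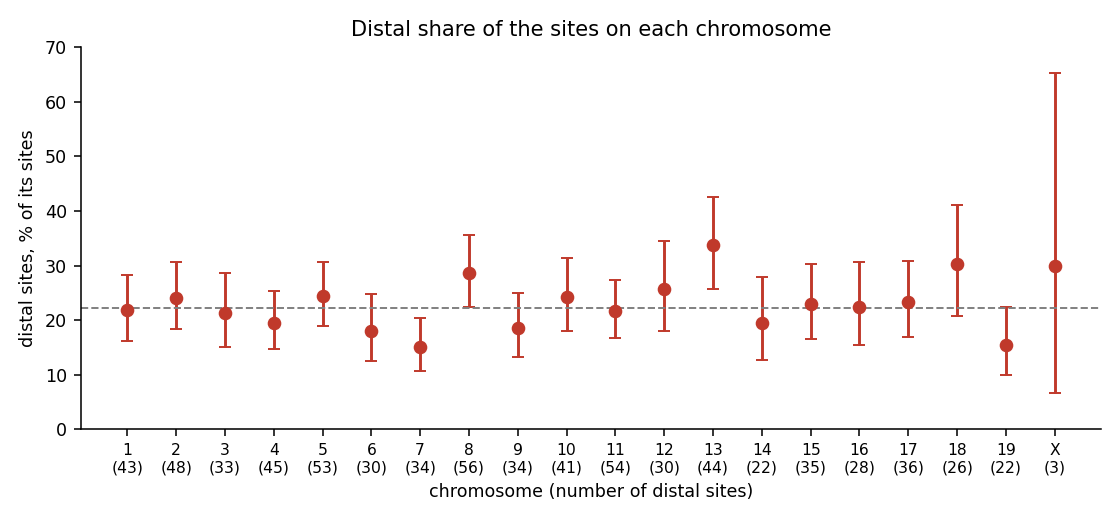
Distal sites as a percent of all sites on each chromosome (y axis), with exact 95% binomial intervals and the share over all sites as a dashed line; the number of distal sites stands under each chromosome on the x axis. The intervals of chromosomes 8 and 13 lie above the line and that of chromosome 7 below it.

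The median distance to the nearest site did not set distal sites apart from intron or TSS sites. The median distance from a distal site to the nearest site of any class, between midpoints, was 48.4 kb (95% interval 36.5 to 62.3 kb), with quartiles at 9.09 and 211.0 kb. It was 58.2 kb (48.8 to 73.3 kb) for TSS sites, 44.3 kb for gene body sites and 42.2 kb (34.4 to 49.9 kb) for intron sites, all with overlapping intervals. Only the intergenic sites within 10 kb had a median whose interval lay lower, 18.9 kb (15.0 to 35.9 kb). With sites whose 3 kb regions overlap merged to 1 locus, this difference was lost, at 60.5 kb (42.5 to 83.0 kb) against 75.5 kb (63.0 to 99.9 kb) in the distal class. Of the distal sites 187, 26.1% (22.9 to 29.5%), had another site within 10 kb, against 31.4% (29.6 to 33.3%) of the other classes together. The distal interval lies just below that of the other classes together. By class it was 26.6% of TSS, 31.7% (29.2 to 34.2%) of intron and 31.8% of gene body sites, and 39.5% of intergenic sites within 10 kb. The intervals of distal and intron sites overlap by little. After the same merging the shares were 11.6% (9.20 to 14.3%) of distal loci, 14.7% (12.8 to 16.8%) of intron loci and 9.70% (7.30 to 12.6%) of TSS loci. Gene body loci and loci of intergenic sites within 10 kb both had 16.7%. This distance of 10 kb equals the limit in the class name, which can keep sites of gene classes away from distal sites. A lower distal share at 10 kb is therefore not read as a result. Without merging, the shares at 50 kb were 50.6% of distal sites and 52.4% of the other classes together, and at 1000 kb 94.98% and 94.88%.

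At the other end, 36 distal sites, 5.02% (3.54 to 6.88%), had no other site within 1000 kb, against 5.12% (4.29 to 6.06%) in the other classes. The most solitary site of the whole table was distal. It was P1545 at chr14:106340501-106340870, with a peak of 369 bp, and its nearest site, in an intron, lay 11383 kb away. P1967 at chr2:48297621-48297940 followed with 8682 kb, and P1223 at chr12:16625711-16626010 with 7789 kb. Their numbers and widths, 299 to 369 bp, were near the middle of the class.

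Distal sites in the first block of numbers had company more often than those in the last block, but the relation over the whole list was weak. In the first 400 numbers 40.5% of distal sites (29.3 to 52.6%) had another site within 10 kb, and 39.3% of other sites did (33.9 to 44.8%). In the last block, from 2801 on, 18.6% of distal sites did (11.9 to 27.0%) and 30.6% of other sites (25.5 to 36.1%). The 2 distal intervals do not overlap. Those of distal and other sites in the last block do, and their difference was not tested. In the 6 blocks between the ends the distal share ran from 23.3% to 29.5%. Distal sites with company within 10 kb had a median number of 1482 (1219 to 1740), and the 530 without had 1717 (1605 to 1867). In the other classes the same medians were 1483 and 1640. Spearman's rho between the number and the distance to the nearest site was 0.10 in the distal class. It was 0.10 in TSS, 0.12 in gene body and 0.06 in intron sites, so the relation was not particular to distal sites.

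The site nearest to a distal site was itself distal in 393 of 717 cases, 54.8% (51.1 to 58.5%), while distal sites were 22.3% of the table. The nearest site was of the same class more often than the class's share of the table in the other classes too. It was so for 61.4% of intron sites (43.9% of the table), 32.0% of intergenic sites within 10 kb (9.14%), 27.96% of TSS sites (18.1%) and 21.3% of gene body sites (6.56%). The class of the neighbour changed with its distance. Where the nearest site was up to 3 kb away it was distal for 119 of 121 distal sites, 98.3%. Where it was 10 to 50 kb away it was distal for 58.5% (50.9 to 65.9%), and where it was 100 to 1000 kb away for 31.2% (25.5 to 37.4%). Beyond 1000 kb it was distal for 6 of 36 sites, 16.7% (6.37 to 32.8%), and an intron site for 20 of 36. The class name itself sets a limit of 10 kb, which can keep sites of gene classes away at short range. The shares below 10 kb are therefore not read as a result. Where the nearest site was over 10 kb away, it was distal for 40.2% of distal sites (35.99 to 44.5%). The same-class share was then 50.5% for intron sites, 20.6% for TSS sites, 10.7% for intergenic sites within 10 kb and 8.33% for gene body sites. The distal share was above 22.3% where the nearest site was 10 to 1000 kb away.

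**Figure D3:**
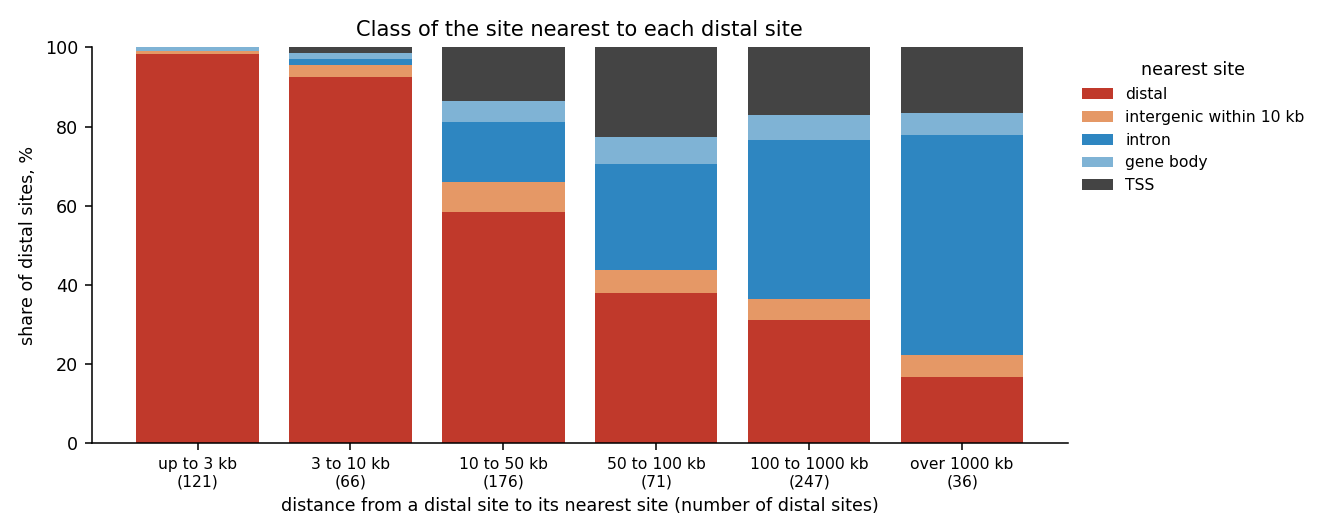
For distal sites sorted by the distance to their nearest site (x axis, number of distal sites in parentheses), the bars give the percent of these nearest sites in each location class (y axis). From 10 to 50 kb to beyond 1000 kb, the share of distal neighbours falls from 58.5% to 16.7%, and that of intron neighbours grows from 15.3% to 55.6%. The bars up to 10 kb are not read as a result, since the class name itself sets a limit of 10 kb.

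A binding site at a promoter was usually far away. The median distance from a distal site to the nearest TSS-class site was 808.8 kb (686.7 to 1055 kb), with quartiles at 210.9 and 2756 kb. Within 20 kb of a TSS-class site were 27 distal sites, 3.77% (2.50 to 5.43%), within 100 kb 112, 15.6% (13.04 to 18.49%), and within 1000 kb 376, 52.4% (48.7 to 56.1%). Intron sites were alike, with a median of 947.4 kb (816.5 to 1032 kb) and 15.7% within 100 kb (13.8 to 17.7%). TSS sites had a median of 520.6 kb to another TSS-class site (418.5 to 615.4 kb), an interval below that of the distal class, and 26.8% of them (23.2 to 30.5%) had one within 100 kb. Since 1 distal site alone had a TSS-class site within 10 kb, sites of every class with one so near were also left out. The medians were then 808.9 kb (689.1 to 1055 kb) in the distal class, 653.7 kb (588.1 to 776.6 kb) in the TSS class and 576.2 kb (443.4 to 675.9 kb) for intergenic sites within 10 kb. Only the last of these keeps an interval below that of the distal class.

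**Figure D4:**
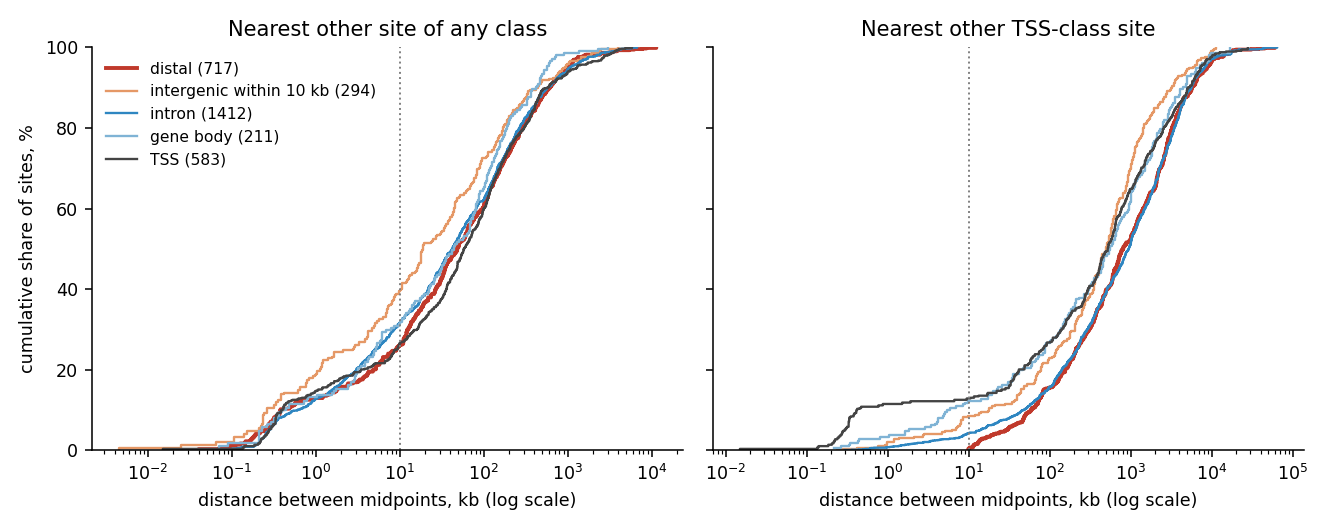
Cumulative percent of the sites of each class (y axis) against the distance in kb between midpoints, on a log scale, to the nearest other site of any class (left) and to the nearest other TSS-class site (right); the dotted line marks 10 kb. On the right the curve of the distal class starts at 9.92 kb and then runs beside that of intron sites, while 12.9% of TSS sites have another TSS-class site within 10 kb.

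The distal site nearest to a TSS-class site was P1441 at chr5:91722081-91722380, 9.92 kb from P1190. P2270 at chr17:8466091-8466270 followed at 10.0 kb, a peak of 179 bp beside the distal site P0455, and P1404 at chr7:146111321-146111670 at 10.1 kb. The farthest were P2407 at chrX:11234791-11235240, 60323 kb from any TSS-class site, and P0149 at chrX:137054821-137055070, 37702 kb. Chromosome X carried 2 TSS-class sites in all. Between these came P3107 at chr14:120656641-120656960, 45126 kb away.

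Several distal sites lay within 10 kb of a site that the table places inside a gene or at a TSS. Counting distances up to 10 kb between midpoints, 5 of them had a gene body site, 1 an intron site and 1 a TSS-class site so near. They are named here after their values were seen. P1203 at chr15:59615901-59616100 was 1.75 kb from the gene body site P1744, and P2566 at chr1:155548551-155549010 was 3.81 kb from the gene body site P0060. P0686 and P2063, on chromosome 15, were 4.78 and 4.96 kb from the gene body site P0508. P0982 on chromosome 3 was 9.54 kb from the intron site P0096, and P1398 on chromosome 7 was 10.0 kb from the gene body site P2400. P1441 completes these 7 sites, but its neighbour is of the TSS class and need not lie inside a gene. The others show that a distance of more than 10 kb to every part of a gene cannot be read from the class name.

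The surroundings of P0686 held distal sites on both sides of a TSS-class site. P2798, P0047 and P0920 filled chr15:88680681-88682480. The TSS-class site P0224 followed at chr15:88692131-88692810 with a peak of 679 bp, then P0508 at chr15:88701231-88701650. P0686 and P2063 came last, at chr15:88706021-88706411 and chr15:88706291-88706511. Within 25.8 kb the table thus lists 5 distal sites, and 3 of the 7 sites have a number below 600: P0047, P0224 and P0508.

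Close company among distal sites came mostly in pairs. Sites chained by steps of 10 kb or less formed 73 groups that held distal sites only, with 171 distal sites, 23.8% of the class (20.8 to 27.1%). Of these groups 56 had 2 sites, 13 had 3, 2 had 4 and 2 had 6. They spanned 0.35 to 15.6 kb, with a median of 2.19 kb. Another 16 distal sites, 2.23% (1.28 to 3.60%), were in 11 groups mixed with other classes. For groups of their own class only, the share was 24.7% (22.5 to 27.1%) of intron sites, 22.8% (18.1 to 28.02%) of intergenic sites within 10 kb, 10.5% (8.10 to 13.2%) of TSS sites and 7.58% (4.40 to 12.0%) of gene body sites. TSS sites were in turn more often in mixed groups, 16.1% (13.2 to 19.4%). The step of 10 kb equals the limit in the class name, so the class itself can keep mixed distal groups rare. With steps of 20 kb, 7.95% of distal sites (6.08 to 10.2%) and 22.6% of TSS sites (19.3 to 26.3%) were in mixed groups. Counted over pairs of the same class only, 25.1% of distal sites (21.97 to 28.45%) had a distal site within 10 kb. The same share was 27.4% (25.1 to 29.8%) for intron sites, 25.5% (20.6 to 30.9%) for intergenic sites within 10 kb, 17.1% (12.2 to 22.8%) for gene body sites and 12.9% (10.3 to 15.9%) for TSS sites.

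One of the groups of 6 lay on chromosome 1, within 2.52 kb. P0479 came first, at chr1:193268131-193268660, with 529 bp, and overlapped P2656 at chr1:193268551-193268870. P1202 at chr1:193269231-193269461 and P0260 at chr1:193269251-193269611 had midpoints 0.085 kb apart. P0184 at chr1:193269791-193270180 had the lowest number of the group, and P2197 at chr1:193270361-193270650 closed it. The nearest TSS-class site, P2266 at chr1:193221341-193221640, was 46.9 to 49.0 kb from the 6 sites. Numbers in this group ran from 184 to 2656.

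The other group of 6, on chromosome 19, was spread over 13.6 kb, from P2240 at chr19:36869681-36870001 to P0859 at chr19:36882931-36883261. It was made of close pairs and single sites: P2240 with P2456, P2624 with P3143, then P0623 and P0859. Its nearest TSS-class site, P3018, was 58.2 kb from P2240. Of the 2 groups of 4, one lay on chromosome 4, over 6.79 kb from 149166341 to 149173131. The other, on chromosome 15, held its sites within 1.31 kb, from P0061 at chr15:38498151-38498610, 459 bp wide, to P2251 at chr15:38499161-38499460. The number of P0061 was the lowest in these 4 groups, and its nearest TSS-class site was 446.0 kb away.

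Some neighbours overlapped outright. The peaks of 39 distal sites, 5.44% (3.90 to 7.36%), overlapped another peak, forming 20 pairs of distal peaks, against 3.44% (2.76 to 4.23%) of the other sites together. Intergenic sites within 10 kb had the highest share, 7.48% (4.75 to 11.1%), followed by the distal class, gene body sites at 4.27% (1.97 to 7.94%), TSS sites at 3.43% (2.11 to 5.25%) and intron sites at 2.48% (1.73 to 3.43%). Only the interval of intron sites does not overlap that of the distal class. The overlaps measured 9 to 299 bp with a median of 124.5 bp, and in 4 pairs the narrower peak lay wholly inside the wider one. The widest case was P0240, whose 689 bp contained all 299 bp of P1072. In 17 of 20 pairs the peak with the lower number was the wider one, with a median of 380 bp against 229.5 bp. The median numbers in the pairs were 690.5 and 2388. Width also fell with the number across all distal sites, so this order is not particular to the pairs. Some pairs shared only their edges, and P0812 overlapped both P2557 and P2276. Each of the 39 peaks counts as a site of its own in every share above taken without merging.

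Followed along each chromosome, distal sites came in 413 uninterrupted runs with no site of another class between. Single sites made up 242 runs, and the remaining 475 sites, 66.2% (62.7 to 69.7%), shared a run with at least 1 other distal site. It was 78.0% for intron sites, 42.5% (38.5 to 46.7%) for TSS sites, 40.5% for intergenic sites within 10 kb and 32.7% for gene body sites. Larger classes thus had larger shares, but not in step with size. The TSS interval lies well below the distal one, with 583 and 717 sites in the classes. How much of this share goes with class size was not tested. The 171 runs of at least 2 sites spanned a median of 95.8 kb. Of these, 32 were no longer than 10 kb and 34 were longer than 1000 kb. Runs thus joined tight groups with sites that merely had no other site between them.

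The 2 runs with the most sites held 9 each and were loose. The first ran over 1994 kb of chromosome 17, from P0447 at chr17:29183091-29183590 to P1107 at chr17:31176561-31176970, and contained P0025 and P0518. The last step of this run, 1527 kb, made up most of its length. The second, on chromosome 13, ran over 1760 kb from P0787 at chr13:51166821-51167120 to P2819 at chr13:52926781-52927230 and contained the narrow P3198. The third held 8 sites on chromosome 9 over 1375 kb, from P2584 at chr9:60879461-60879870 to P1987 at chr9:62254561-62254870. No step in it was 10 kb or less, the smallest being 13.6 kb.

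A further run of 8, on chromosome 8, was tighter, with 198.8 kb from P1924 to P0642. Of its 7 steps 5 were 10 kb or less, so that the sites fell into 3 clumps. Runs of 4 or more sites numbered 32 and held 166 distal sites. Chromosome 8 had 5 of them with 26 of its 56 distal sites, 46.4%, and chromosome 17 had 4 with 21 of its 36, 58.3%. Chromosome 13, which had the highest distal share among chromosomes 1 to 19, had 1 such run with 9 of its 44 distal sites. Over all chromosomes 23.2% of distal sites (20.1 to 26.4%) were in such runs.

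**Figure D5:**
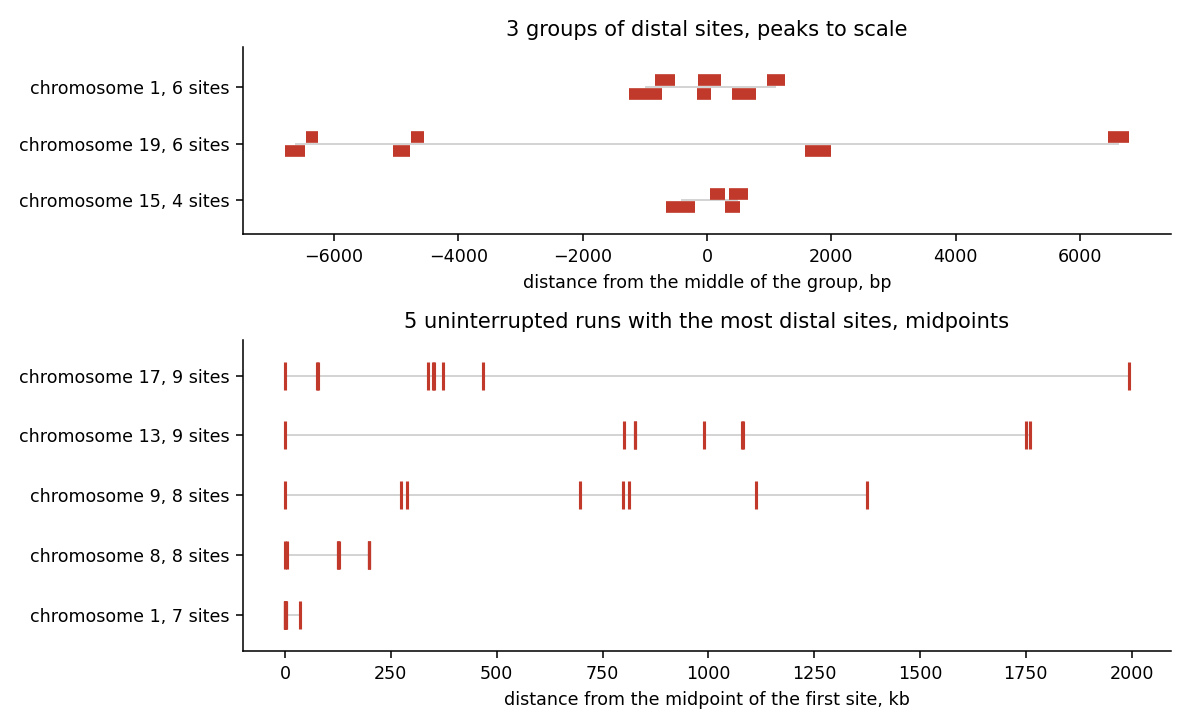
Above, the peaks of both groups of 6 distal sites and of 1 of the 2 groups of 4, drawn to scale by their distance in bp from the middle of the group (x axis), with neighbours set at alternating heights; below, midpoints of the 5 uninterrupted runs with the most distal sites by their distance in kb from the first site. The 6 sites on chromosome 1 lie within 2.52 kb, whereas the runs on chromosomes 17, 13 and 9 extend over 1375 to 1994 kb.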

How the data were processed

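CLK ChIP and input libraries of mouse liver were made by the authors; reads were handled with CASAVA 1.7 and Bowtie on genome build mm9, per the submitters' processing notes. The deposited site table lists positions and location classes and holds no read depth. No source used here says how sites were called, pooled or classed. The identifiers begin with Koike_CLKBMAL1, while the 18 libraries are CLK ChIP and input with no BMAL1 ChIP. Whether the sites were called from these libraries or come from elsewhere is therefore not known here. Every peak start ends in the digit 1, and peak ends lie on the same 10 bp grid to within 1 bp. The deposited table of mean ChIP profiles was not used.

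From the site table, distances between peak midpoints, groups chained by steps of 10 kb or less, uninterrupted runs and overlaps of at least 1 bp were computed with Python 3.11.15, pandas 2.3.3 and scipy 1.17.1. Two-sided 95% intervals are exact binomial (Clopper-Pearson) for shares and order-statistic intervals for medians; no test was run. The functions were tested on simulated sites. Sites were named by fixed extremes (lowest numbers, widest, narrowest, farthest, nearest, largest groups, longest runs) unless stated. The class and these rules were chosen with earlier results of these data known. No sequence is shown, since no mm9 genome was used here.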

Additional observations from a re-analysis of the deposited data

How the results depend on the processing

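Of 120 recomputed values, 110 stayed within the 95% interval of the reported value, among them the distal share, the number, the width and both median distances with each of 20 chromosomes left out in turn (share 21.8 to 22.8%, median number 1641 to 1689, width 300 to 309 bp, nearest site 46.1 to 52.0 kb, nearest TSS-class site 726.1 to 848.6 kb). Most of the 120 values left out 1 chromosome, at most 7.74% of the sites, so the count of 110 says little about the other settings. The other 10 moved, all of them among the settings that left out no chromosome. With overlapping 3 kb regions merged to 1 locus, the median distance of distal sites to the nearest site was 75.5 kb in place of 48.4 kb, and their share with company within 10 kb was 11.6% in place of 26.1%; the merging itself removes the closest neighbours. TSS sites moved from 58.2 to 88.3 kb and intergenic sites within 10 kb from 18.9 to 60.5 kb. With steps of 5 and 20 kb in place of 10 kb, the share of distal sites with company was 20.1% and 36.7%, and the share in groups of distal sites only 18.8% and 28.7%. Within 4 equal parts of the list, in order of the numbers, the median distal width was 370, 329, 289 and 259 bp. Leaving out sites with a TSS-class site within 10 kb, the merging for the share within 10 kb, and the blocks of numbers, were chosen after seeing the data. The planned search for the E-box was not run. No paired analysis was possible because the site table has no value per library. The number of sites limits all shares of small subsets, such as the 3 distal sites on chromosome X.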

Other observations

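Peak ends came in 2 forms. In 563 of the 717 distal sites the end coordinate finished in the digit 0, and in 154, 21.5% (exact 95% binomial interval 18.5 to 24.7%), in the digit 1. The share was 22.4% (20.8 to 24.1%) in the other classes. Distal peaks ending in 1 had a median width of 270 bp (260 to 290 bp), and those ending in 0 of 309 bp (309 to 319 bp). The peaks ending in 1 were the narrower ones in each of 4 equal parts of the list, at 350 against 379 bp in the first and 220 against 264 bp in the last. Among the 39 distal peaks that overlapped another peak, 18 ended in 1, against 136 of the 678 that did not. The other classes had the same order of widths, 270 bp against 319 bp. No source used here says what distinguishes the 2 forms, and it was not tested.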
